A study of Mus musculus with 32 samples.

Results

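In hepatectomised Mettl14 knockout mouse liver, the m6A pull-down libraries (IP) of 4 animals were set against the input libraries of the same 4 animals. The genes described are those with a mean level of at least 50 CPM over the 4 inputs (CPM is the count divided by the library total, times 1000000): 3056 of the 55421 genes in the table, of which 3055 were tested and 2947 could be given a symbol. The level in the inputs chose them and is no result, and a ratio of IP to input is tied to that choice through its denominator.

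The groups were hepatectomised Mettl14 KO, hepatectomised flox control, sham-operated Mettl14 KO and sham-operated flox control mice, 4 animals in each, with an IP and an input library from the liver of every animal (32 libraries from 16 mice). The hepatectomised KO animals were 72 or 73 days old, the hepatectomised flox and the sham KO animals were of the same ages, and the sham flox animals were 71 to 77 days old. KO and flox are the names the labels give to the Mettl14 knockout and its controls; the labels name neither a Cre line and its promoter nor the time from surgery to sampling. IP libraries came from total RNA broken into short fragments, precipitated with an antibody against m6A and prepared with a kit that does not mark strand, and input libraries were prepared with a stranded mRNA kit, so antibody and kit differ together between IP and input and cannot be told apart.

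N6-methyladenosine (m6A) is a methyl mark on adenosines inside mRNA, found mostly near stop codons and in long internal exons. It is written by a complex in which METTL3 carries the catalytic site and METTL14 holds the RNA, is removed by FTO and ALKBH5, and is bound by YTH proteins that alter splicing, translation or decay of the marked mRNA. In liver, hepatocytes fill most of the mRNA pool with transcripts of plasma proteins and metabolic enzymes, and fibrinogen, the clot protein named in the title of the series, is among the most abundant. An IP/input ratio compares the share of a transcript among precipitated fragments with its share among mRNA, and is relative to all other transcripts of the same library.

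All 12 hepatocyte markers were among the 3056 genes. Their summed level was 62981, 64055, 35871 and 101207 CPM in the IP libraries of animals 1 to 4, against 114889, 106008, 116303 and 130458 CPM in the inputs, and 4 of 10 lymphocyte markers were at 0 in all 8 libraries. Mettl14 itself had a count of 0 in all 4 inputs. By counting error alone this allows up to 0.239 to 0.284 CPM in each. In the IP libraries Mettl14 had a count of 60 in animal 2 and 0 in the others. The hepatectomised flox inputs were also all at 0, so the genotype could not be checked from these inputs. Totals were 7133766 to 19509035 counts in the IP libraries and 10566456 to 12533931 in the inputs. The IP library of animal 4 stood apart with the lowest total and 6669 genes of at least 10 counts, against 10397 to 13190 in the other 3 IP libraries. The inputs held 5972 to 8273 such genes, in each animal fewer than its IP library. In hepatectomised flox liver the inputs held 4460 to 4948 and the IP libraries 10110 to 11787. The part of this in genes at 0 in input was not tested.

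Few of these mRNAs passed the test between IP and input. A gene was called when its adjusted p was 0.05 or less and its fitted log2 IP/input was at least 1 in size (edgeR's quasi-likelihood test over all 32 libraries, adjusted over 14328 genes). The fit did not pair IP with the input of the same animal. Each SE below comes from this fit, with a spread estimated over all 32 libraries, and is not an SE over the paired ratios of 4 animals. By that rule 44 genes were lower in IP and 1 was higher, Ncl, which encodes nucleolin. The background over all genes tested was 0.307% called lower and 0.0209% called higher, and the 44 genes made up 1.44% of those described. Of the genes not described 0 were called lower, so the background called lower is the same 44 genes. The higher percentage among the described genes follows from the smaller denominator and is no result. By the adjusted p alone, 47 were lower and 4 higher, against a background of 0.328% lower, which is the same 47 genes, and 0.0419% higher. All 44 were lower in IP in 4 of 4 animals, and in 38 of them every IP level was below every input level. The call used these same libraries, so this lends it no further support. Over all 3056 described genes, 425 were lower in IP in 4 of 4 animals. Every IP level was below every input level in 169 (5.53%), against 1.33% of all genes tested. The 44 genes held 4.76, 5.28, 3.25 and 8.27 percent of the IP counts of animals 1 to 4, against 13.7, 12.5, 14.4 and 15.5 percent of the input counts.

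The count of genes called lower was 18 to 80 over the alternatives, and the balance of directions varied: 37 were called lower and 21 higher when only the described genes were fitted, and 80 lower and 22 higher by DESeq2. It was 25 without animal 1 and 20 without animal 3, and the count called higher was 10 without animal 4 and 0 without animal 2, without animal 3 or with the animal as a block. Of the 44 genes, 34 were also called by DESeq2, 22 by limma voom and 22 with upper-quartile factors, and 3 (Elovl3, Steap4 and Gm8893) under all 14 alternatives. Among the calls lost with limma voom were Fga, Fgb, Fgg, Saa1, Saa2, Hp, Serpina1e, Serpina3k, Serpina3n, Mup3 and Mup20. The median log2 IP/input was -0.59 over the described genes and 0.31 over all genes tested. It was -0.27 when the genes were chosen by the inputs of the other 3 groups, -0.34 without animal 4, and -0.14 when only the described genes were fitted, so group medians below are also given relative to the median of the described genes. The scaling factors (TMM) put fitted values 0.22 lower on the log2 scale than the ratio of the CPM levels printed here.

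**Figure D1:**
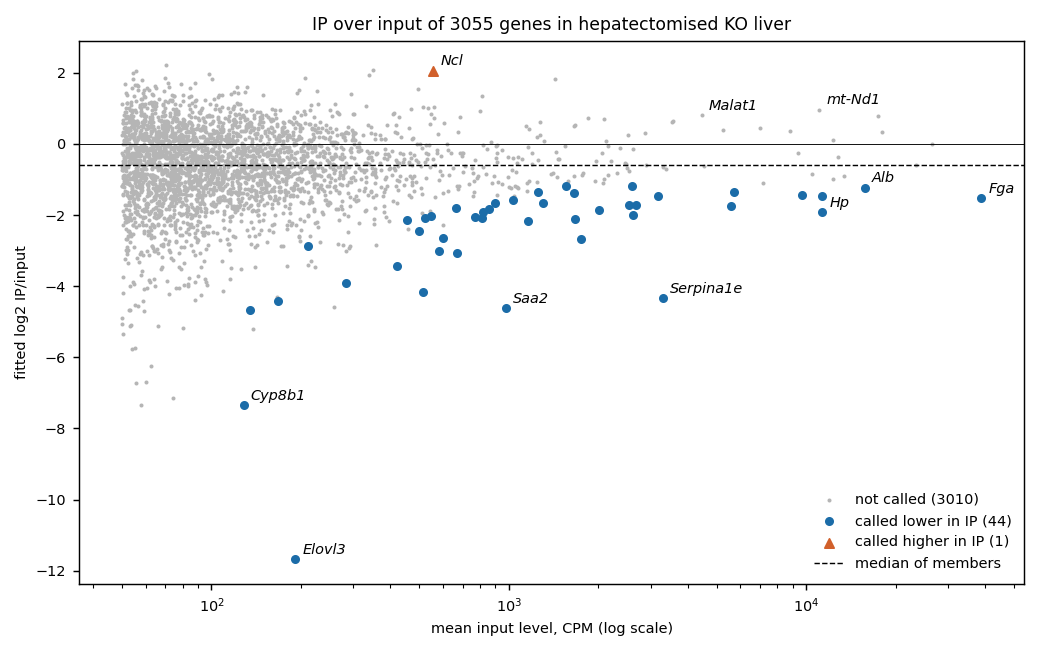
Fitted log2 IP/input (vertical axis) against mean input level in CPM on a log scale (horizontal axis) for 3055 genes in hepatectomised KO liver, with 44 genes called lower in IP in blue, 1 called higher as an orange triangle and the median of -0.59 dashed. The called genes lie mostly among the abundant ones, and 35 of the 44 had an input level of at least 500 CPM.

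The calls lay among the abundant mRNAs. Of the 200 genes with at least 500 CPM in input, 35 were called lower and 1 higher, and of the other 2856 genes 9 were called lower. The median coefficient of variation between animals was 38.2% in IP and 25% in input for the 200 abundant genes, against 54.7% in IP and 71.3% in input for the others. Across the 200 abundant genes the log2 IP/input of one animal correlated with that of another at Pearson r of 0.39 to 0.79, and across all described genes at 0.034 to 0.13. These are correlations across genes of paired libraries, which are not independent replicates.

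Fibrinogen mRNAs were lower in IP, all 3 chains together. Fga, Fgb and Fgg encode the alpha, beta and gamma chains, which hepatocytes assemble and secrete, and their genes lie side by side on chromosome 3 (Fga 83026076 to 83033627, plus strand; Fgb 83040141 to 83049863, minus strand; Fgg 83007724 to 83015049, plus strand; positions as in the table, whose build no source used here names). Fga had 14807, 15777, 9708 and 23951 CPM in the IP libraries of animals 1 to 4, against 37919, 30844, 44462 and 42164 CPM in their inputs. Every IP level was below every input level, and Fga was the most abundant of all described mRNAs in input. Its fitted log2 IP/input was -1.52 ± 0.20 (SE of the fit, 4 animals), with an adjusted p of 1.07e-06.

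Fgb had 3957, 4464, 3013 and 5595 CPM in IP, against 9639, 7493, 9939 and 11722 CPM in input, again with no overlap (log2 -1.43 ± 0.19, adjusted p = 1.07e-06). Fgg had 2297, 2036, 1317 and 5066 CPM in IP, against 5633, 4424, 5694 and 7168 CPM in input. Its IP level in animal 4 lay above the input level of animal 2, so the groups overlapped, but IP was lower within each animal (log2 -1.34 ± 0.25, adjusted p = 0.00155). The Fgg call was lost without animal 3 (adjusted p = 0.106), while Fga and Fgb kept theirs whichever animal was left out. With limma voom the adjusted p was 0.0703 for Fga, 0.884 for Fgb and 0.111 for Fgg. The median of the 3 chains was -1.43, which is 0.84 below the median of the described genes in log2 units.

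Positive acute phase mRNAs, which the liver makes more of after injury and inflammation, formed the group with the most calls. Of 24 described genes 12 were called lower, none higher, and 22 of 24 lay below the median of the described genes. Beside this and the list counts below stand 44 called lower of 3055 described genes, and 35 of the 200 with at least 500 CPM. The part of abundance in the list counts was not tested. Their median was -1.80, which is -1.21 relative to that median. Serum amyloid A mRNAs encode apolipoproteins that ride on HDL during the acute phase. Saa2 had 5.30, 101, 18.6 and 66.2 CPM in IP, against 971, 844, 988 and 1098 CPM in input (log2 -4.62 ± 0.80, adjusted p = 0.000261). Saa1 had 3.55, 80.5, 18.1 and 85.8 CPM in IP, against 252, 521, 498 and 406 CPM in input (log2 -3.43 ± 0.71, adjusted p = 0.00478). Both were lowest in the IP library of animal 1 and did not overlap with input, and their near-identical sequences make the split of reads between them uncertain. The Saa1 call was lost without animal 3 (adjusted p = 0.112).

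Haptoglobin (Hp), which binds free haemoglobin in plasma, had 2250.4, 3457, 1364 and 7096 CPM in IP, against 11006, 9888, 12654 and 11666 CPM in input. The IP level was highest in animal 4 and still below all inputs (log2 -1.92 ± 0.28, adjusted p = 1.01e-05). Steap4, a metalloreductase of the cell membrane that inflammation induces, had 292, 272, 276 and 460.5 CPM in IP, against 1868, 1035, 1856 and 2250.4 CPM in input. All 4 IP levels lay below all 4 inputs, and Steap4 was called under all 14 alternatives (log2 -2.68 ± 0.40, adjusted p = 1.17e-05). Metallothionein 1 (Mt1), which binds zinc and copper, had 656, 573, 580.4 and 822 CPM in IP, against 1475, 1836, 2224 and 2492 CPM in input (log2 -1.85, adjusted p = 0.00848). Its call was lost without animal 3 or animal 4 (adjusted p = 0.138 and 0.122). In the list of iron and metal handling genes 4 of 15 were called lower and none higher, and all 4 (Hp, Hpx, Mt1 and Mt2) are also in the acute phase list.

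Serpina genes encode inhibitors of serine proteases that the liver secretes, among them alpha-1 antitrypsin. Of 10 described members 5 were called lower and none higher, with a median of -1.25 (-0.66 relative to the described genes), and 3 of the 5 (Serpina3k, Serpina3m and Serpina3n) are also among the 12 acute phase calls. Serpina1e (chromosome 12, 103946931 to 103958975, minus strand) had 164, 139.6, 54.8 and 426 CPM in IP, against 2395, 2910.2, 4119.8 and 3723 CPM in input. That is a log2 IP/input of -4.33 ± 0.42 (adjusted p = 5.45e-11), the lowest adjusted p of the described genes that were called. Serpina1e was called under 13 of 14 alternatives, and not by limma voom. Serpina3n and Serpina3k, mouse relatives of alpha-1 antichymotrypsin, were lower by less: Serpina3n had 1723, 1758, 1548 and 2716 CPM in IP, against 6101, 4658, 5649.5 and 5861 CPM in input (log2 -1.75, adjusted p = 1.07e-06), and Serpina3k had 4449, 4719, 3124 and 6969 CPM in IP, against 11892, 8769, 11535 and 13147 CPM in input (log2 -1.47, adjusted p = 1.07e-06). No IP level of these 3 mRNAs reached an input level. Serpina1d was nearest to the limit of size (log2 -1.17, adjusted p = 0.0151) and lost its call without animals 1, 3 or 4 (adjusted p = 0.231, 0.31 and 0.283).

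Gm8893, annotated as a pseudogene in the same stretch of chromosome 12 (103817856 to 103822243, minus strand), had 36.6, 23.3, 16.2 and 62.8 CPM in IP, against 595, 247, 698 and 524 CPM in input (log2 -4.15 ± 0.62, adjusted p = 1.01e-05). It was called under all 14 alternatives. Members of this cluster are close copies of each other, so estimated counts may have been divided among them.

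Major urinary proteins are small lipid-binding proteins that male mouse liver secretes in large amounts and that carry pheromones in urine. All 13 described genes of the family lay below the median, at a median of -3.06 (-2.47 relative to the described genes), and 4 were called lower. Mup3 had 54.5, 131, 22.3 and 182 CPM in IP, against 749, 355, 837 and 747 CPM in input (log2 -3.06 ± 0.43, adjusted p = 4.59e-06). Mup20, also known as darcin, had 38.5, 78.9, 98.6 and 116 CPM in IP, against 603, 583, 299.5 and 849 CPM in input (log2 -3.01 ± 0.54, adjusted p = 0.000519). For both, the highest IP level was below the lowest input level.

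Mup11 and Mup7 had the same direction at lower levels and with more spread. Mup11 had 0, 1.65, 1.28 and 24.4 CPM in IP, against 34.3, 73.6, 271 and 160.2 CPM in input (log2 -4.66, adjusted p = 0.00452), and its call was lost without animal 3 (adjusted p = 0.184). Mup7 had 0.146, 3.70, 33.8 and 0.210 CPM in IP, against 58.3, 109, 247 and 253 CPM in input (log2 -4.41, adjusted p = 0.0233), and its call was lost without animals 1, 2 or 4 (adjusted p = 0.17, 0.127 and 0.283). Reads of these near-identical genes cannot be assigned to one copy with certainty, while the summed level of the 22 listed genes was 176, 354, 332 and 1005 CPM in IP, against 3431, 2276, 3265 and 4553 CPM in input. The sum was lower in IP in each of the 4 animals.

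Albumin and other plasma carriers were lower by less. Of 13 described genes 4 were called lower, none higher, and the median was -0.98 (-0.39 relative to the described genes). Alb, the main plasma protein, had 7309.9, 7415, 3633 and 12703 CPM in IP, against 14134, 19574, 11608 and 17766 CPM in input. The IP level of animal 4 was above the input level of animal 3, and the fitted log2 was -1.23 ± 0.22 (adjusted p = 0.00052). Pzp, a protease-trapping relative of alpha-2-macroglobulin, had a log2 of -1.45 (adjusted p = 0.0022). Ambp, the precursor of alpha-1-microglobulin, had -1.38 (adjusted p = 0.0125), a call lost without animals 1, 3 or 4 (adjusted p = 0.304, 0.31 and 0.0739). Transferrin (Trf), the iron carrier, had 7072, 8406, 5663 and 7836 CPM in IP, against 12428, 13089.7, 10232 and 13538 CPM in input, which passed the adjusted p (0.00313) at a log2 of -0.98 and so was just under the limit of size.

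Other secreted proteins differed in how far they followed. None of 14 described apolipoprotein mRNAs was called, and their median was -0.25, above that of the described genes by 0.34, with a sign that turned to 0.21 when only the described genes were fitted, to 0.09 with DESeq2's size factors and to 0.06 without animal 4. Apoa1, the main protein of HDL, had 8764, 8692, 4804 and 11426 CPM in IP, against 13557, 10495, 13910.2 and 15726 CPM in input, and passed the adjusted p (0.00155) at a log2 of -0.91, under the limit of size. Apob, the main protein of VLDL and LDL, had 15839, 14990.1, 6361 and 35597 CPM in IP, against 25099, 19852, 22035 and 26585 CPM in input (log2 -0.59, adjusted p = 0.168), with animal 4 higher in IP and the other 3 lower. Apoh, which binds phospholipids in plasma, had a log2 of -2.15 with an adjusted p of 0.168.

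Among 21 genes listed as clotting factors and inhibitors other than fibrinogen none was called, at a median of -1.07. Hrg, a histidine-rich plasma protein, was at -1.15 (adjusted p = 0.058) and Kng1, the source of bradykinin, at -1.07 (adjusted p = 0.137). The entry F2 (prothrombin) of that list had the same log2 of 0.68 as Rpl3, a ribosomal mRNA. It appears to have been matched to Rpl3 by a synonym, so prothrombin was not read. The count of 21, the median and the figures include this entry. Among 20 complement genes 1 was called lower and none higher. C3, the hub of the cascade, passed the adjusted p (0.0458) at a log2 of -0.83.

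Elovl3 and Cyp8b1 had the largest differences of the described genes called lower. Elovl3, an elongase of very long chain fatty acids (chromosome 19, 46131897 to 46135694, plus strand), had 3 counts over the 4 IP libraries together and levels of 0.0582, 0, 0.0606 and 0.140 CPM, against 439.7, 73.8, 185 and 66.3 CPM in input. Pooled over animals the input level was 3914 times the IP level, with a 95% counting interval of 1339 to 18985 that covers counting error only. Cyp8b1, the sterol 12-alpha-hydroxylase that sets the ratio of bile acids (chromosome 9, 121914356 to 121916305, minus strand), had 0.0582, 3.74, 0 and 0 CPM in IP, against 72.2, 90, 115 and 236 CPM in input. Nearly all of its IP counts came from animal 2. The adjusted p was 4.3e-05 for Elovl3 and 2.56e-05 for Cyp8b1, with fitted log2 values of -11.67 and -7.34 that depend on how counts near 0 are treated.

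Genes of bile acid synthesis and transport had 3 of 13 called lower and none higher, at a median of -1.19. Besides Cyp8b1 these were Slco1b2, a hepatocyte uptake transporter of bile acids (log2 -2.43, adjusted p = 0.00242), and Slc27a2, which activates very long chain fatty acids (log2 -1.81, adjusted p = 0.0115). The Slco1b2 call was lost without animal 3 (adjusted p = 0.112). The Slc27a2 call was lost with the animal as a block (adjusted p = 0.0559) and without animals 1, 3 or 4 (adjusted p = 0.281, 0.31 and 0.103).

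Of 27 cytochromes P450, 2 were called lower and none higher, at a median of -1.35 (-0.76 relative to the described genes). Cyp2e1, which oxidises ethanol and paracetamol around the central vein, had 233, 401, 201 and 993 CPM in IP, against 2140.0, 1209, 1894 and 1457 CPM in input. No IP level reached an input level, and animal 4 was the highest in IP (log2 -2.12 ± 0.31, adjusted p = 9.77e-06). Cyp2c29 had a log2 of -2.14 (adjusted p = 0.0115) and lost its call without animals 1 or 3 (adjusted p = 0.212 and 0.31). Cyp2c37 had a log2 of -5.13 and did not pass (adjusted p = 0.168), with an input of 1.39 CPM in animal 3 and 58.4 to 106.7 CPM in the others.

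Urea cycle and ammonia genes had 1 of 10 called lower, at a median of -1.34. This was Cps1, the first enzyme of the cycle, with 779, 889, 1124 and 822 CPM in IP, against 1504, 3702, 2555 and 2414 CPM in input (log2 -1.71, adjusted p = 0.00848), a call lost whichever animal was left out (adjusted p = 0.0631, 0.168, 0.0626 and 0.197). Glul, the glutamine synthetase of pericentral hepatocytes, had a log2 of -1.46 (adjusted p = 0.106). Of 33 fatty acid oxidation genes 1 was called lower and none higher, and Acsl1, which activates fatty acids, did not pass (-1.06, adjusted p = 0.179). Beside Elovl3, Egfr, the receptor of epidermal growth factor, was one of 2 genes called lower among 16 of the growth hormone axis list. It had 425, 579, 451 and 1664 CPM in IP, against 2425, 1779, 2495 and 3738 CPM in input (log2 -1.99 ± 0.33, adjusted p = 8.28e-05).

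Retreg1 and B3galt1 completed the 12 called genes with a regular symbol and the largest differences below input. Retreg1, a receptor for autophagy of the endoplasmic reticulum, had 25.2, 43.1, 27.0 and 33.1 CPM in IP, against 206, 339.7, 53.9 and 244 CPM in input (log2 -2.87, adjusted p = 0.0238). Its call was lost with the animal as a block (adjusted p = 0.299) and whichever animal was left out (adjusted p = 0.304, 0.246, 0.106 and 0.236). B3galt1, a galactosyltransferase, had 57.2, 37.4, 29.0 and 316 CPM in IP, against 1096, 432, 373 and 510.2 CPM in input (log2 -2.64, adjusted p = 0.0115). The IP level of animal 4 was far above the other 3, and the call was lost without animals 1, 2 or 3 (adjusted p = 0.304, 0.102 and 0.131).

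**Figure D2:**
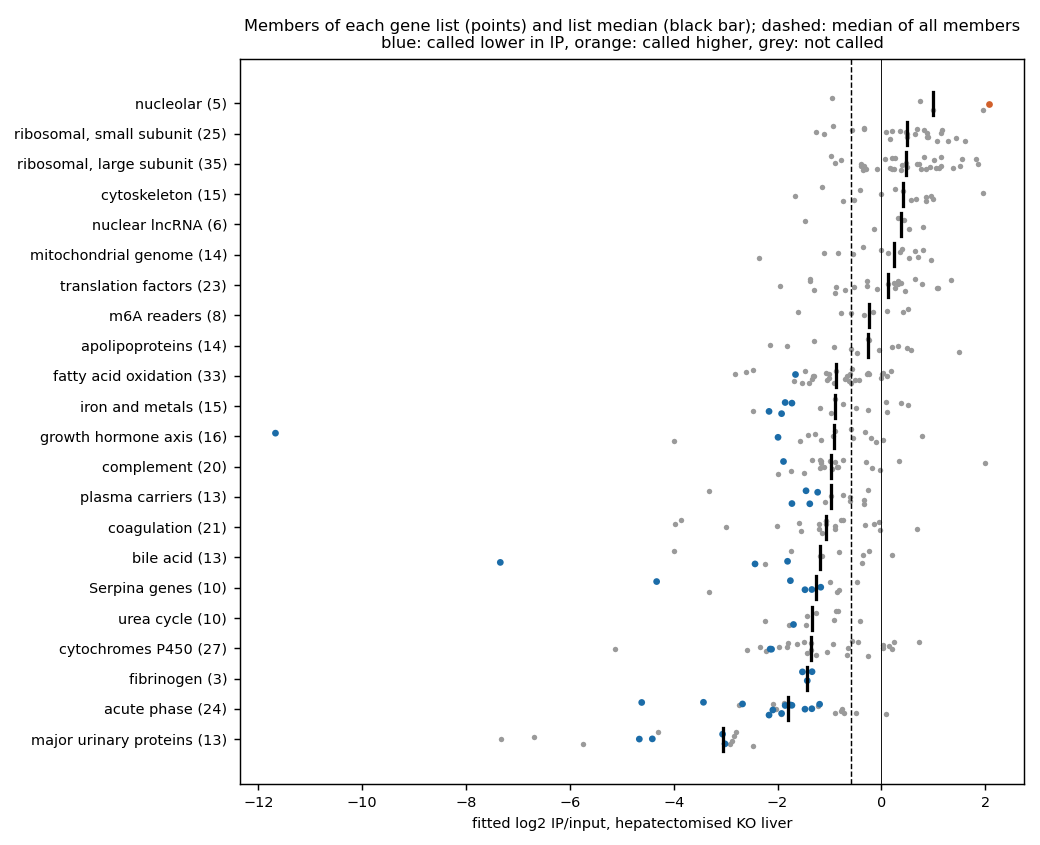
Fitted log2 IP/input (horizontal axis) of the described genes in 22 lists, each point a gene and each black bar the list's median, with blue for genes called lower in IP, orange for the gene called higher and a dashed line at the median of -0.59. Medians run from -3.06 for major urinary proteins to 1.0 for nucleolar genes.

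mRNAs of ribosome assembly and of the ribosome lay at the other end, although only Ncl passed the test. Nucleolin, which Ncl encodes, works in rRNA transcription and processing. Ncl (chromosome 1, 86344719 to 86359400, minus strand) had 2793, 2647, 5249.5 and 477 CPM in IP, against 579, 365, 906 and 374 CPM in input, higher in IP in 4 of 4 animals (log2 2.07 ± 0.48, adjusted p = 0.0214). Animal 4 had the lowest IP level by far and overlapped with the inputs. Without it the log2 was 2.57 (adjusted p = 0.000862), while without animals 1, 2 or 3 the call was lost (adjusted p = 0.0508, 0.23 and 0.165), as it was with the animal as a block (adjusted p = 0.0559). Npm1, nucleophosmin, had 1483, 1504, 3018 and 136 CPM in IP, against 337, 313, 369 and 340.3 CPM in input (log2 1.95, adjusted p = 0.164), and was above its inputs in animals 1 to 3 and below in animal 4. The median of 5 nucleolar genes was 1.0.

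Ribosomal protein mRNAs had a median log2 of 0.48 over 35 genes of the large subunit and 0.49 over 25 of the small subunit, which is 1.07 and 1.08 above the median of the described genes. Only 3 genes of each list lay below that median, and none was called in either direction. When only the described genes were fitted, with p-values adjusted over them, 3 of the large subunit were called higher and none of the small. Rpl41 had 1016, 1107, 2018 and 770.2 CPM in IP, against 552, 628, 413 and 548 CPM in input. Every IP level was above every input level, at a log2 of 1.0 that did not pass (adjusted p = 0.179). Over all described genes, 88 (2.88%) had all IP levels above all input levels, against a background of 6.12% of the genes tested. All IP levels were below all input levels in 169 (5.53%), against 1.33%. The choice of genes by these same inputs favours IP below input, and the background includes the described genes. These shares are therefore no result about the described genes.

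Rpl21 had a log2 of 1.54 (adjusted p = 0.168). In the small subunit, Fau, whose product is cut into a ribosomal protein, had 376, 367, 766 and 267 CPM in IP, against 49.4, 90.2, 133 and 214 CPM in input. The groups did not overlap, and the adjusted p was 0.362. Rpsa went the other way with a log2 of -1.27 (adjusted p = 0.758). Among 23 translation factors the median was 0.13, and it was -0.25 without animal 3 and 0.54 without animal 4. Eif3a, a subunit of the initiation factor that joins the small subunit, had 1.34 (adjusted p = 0.164) and the elongation factor Eef1a1 -0.88 (adjusted p = 0.168). None of the 23 was called.

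Transcripts of the mitochondrial genome, which are made outside the nucleus and mostly encode respiratory chain subunits, had a median of 0.23 over 14 genes (0.82 above the described genes), and none was called. They were split, with 8 above 0 and 6 below, from mt-Rnr2 at -2.36 to mt-Nd1 at 0.96. mt-Nd1 had 28026, 25671, 38708 and 8052 CPM in IP, against 12257, 10245, 12669.5 and 9015 CPM in input (log2 0.96 ± 0.21, adjusted p = 0.00848). mt-Nd2 had 41653, 35119.7, 47909 and 16689 CPM in IP, against 20508, 12876, 18711 and 17835 CPM in input (log2 0.79, adjusted p = 0.0134). Both passed the adjusted p under the limit of size, were higher in IP in animals 1 to 3 and lower in animal 4, and turned negative with limma voom (-0.67 and -0.57). mt-Co2 had a log2 of 0.64 (adjusted p = 0.168), mt-Nd4 0.35 and mt-Nd5 -0.01. The share of counts on the 14 transcripts was 18.7, 16.4, 24.1 and 8.62 percent in IP, against 12.2, 10.1, 12.4 and 11.1 percent in input, highest in IP in animal 3 and lowest in animal 4.

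Malat1, a long noncoding RNA of nuclear speckles, had 10176, 8647, 9879 and 7257 CPM in IP, against 4799, 4446, 4033 and 4557 CPM in input. All 4 IP levels were above all 4 inputs, and it passed the adjusted p (0.0026) at a log2 of 0.80, under the limit of size. Neat1, which builds paraspeckles, had -1.48 (adjusted p = 0.412), with an input level of 9.21 CPM in animal 3 and of 222.9 to 607 CPM in the others. Among 15 cytoskeletal genes, at a median of 0.42, Myh9 had 0.99 (adjusted p = 0.219) and Tmsb4x 1.96 (adjusted p = 0.276), and none was called. Markers of other liver cells did not all go one way. Kupffer cell and myeloid markers summed to 1422, 1442, 1343 and 1022 CPM in IP, against 429, 703, 635 and 826 CPM in input, and endothelial markers to 1413, 1359.9, 1676 and 844 CPM in IP, against 868, 589, 566 and 273 CPM in input, both higher in IP in each animal. The log2 of the summed IP level over the summed input level was 0.29, 0.19, -0.23 and 0.96 for stellate markers in animals 1 to 4, 0.68, 0.11, 0.21 and -1.10 for cholangiocyte markers and -0.48, -0.06, -1.83 and -0.92 for red cell markers, which were lower in IP in each animal. Lymphocyte markers summed to 0.233, 2.82, 19.6 and 184 CPM in IP, against 0.245, 23.4, 1.23 and 0 CPM in input. Only 5 of 16 Kupffer cell and myeloid and 3 of 12 endothelial markers were among the described genes, none of them called, and their part in the results on other genes was not tested. IP and input of an animal come from the same liver, so these ratios do not measure how many cells of a type it held. Between groups of animals, fewer cells of a type and less RNA per cell cannot be told apart in bulk tissue.

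**Figure D3:**
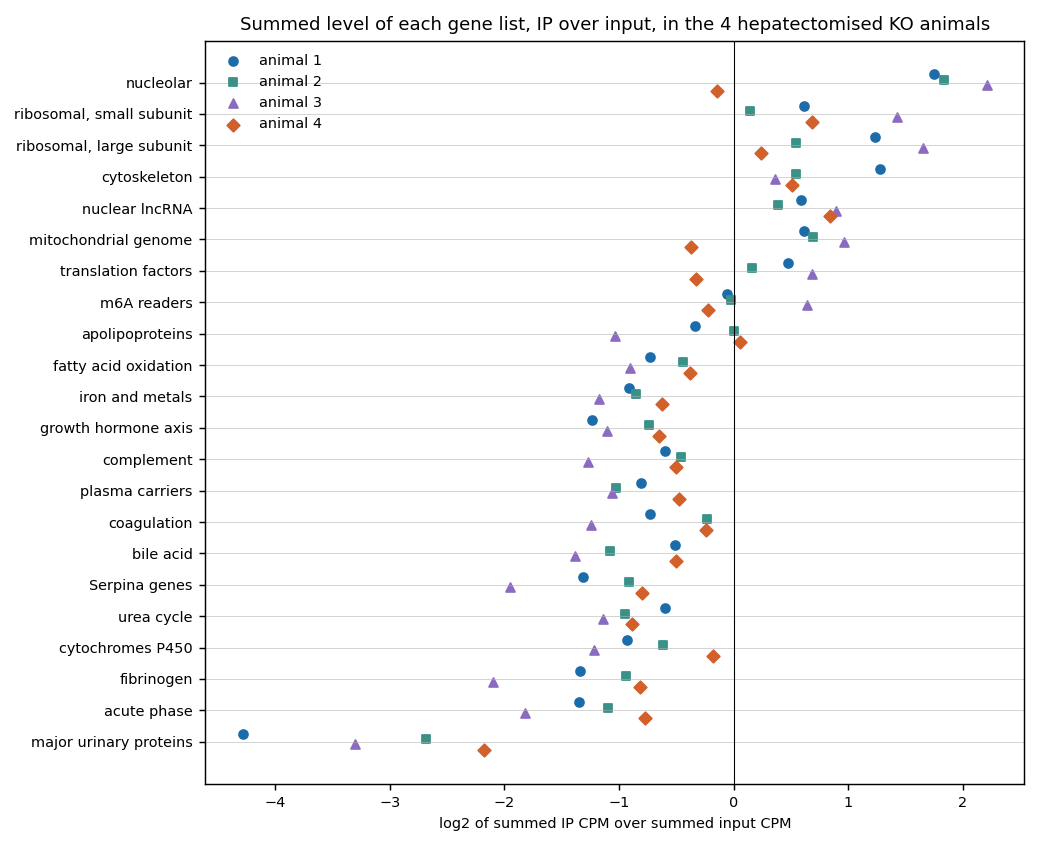
Log2 of the summed IP level over the summed input level of each of 22 gene lists (horizontal axis), with a symbol for each of the 4 hepatectomised KO animals. Nucleolar genes range from -0.14 in animal 4 to 2.21 in animal 3, fibrinogen from -2.10 in animal 3 to -0.82 in animal 4.

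The 4 animals differed in the size of these shifts and, for some groups, in direction. The summed fibrinogen level in IP over input was -1.34, -0.94, -2.10 and -0.82 on the log2 scale in animals 1 to 4, and that of the acute phase genes -1.35, -1.10, -1.82 and -0.77. The nucleolar genes gave 1.74, 1.83, 2.21 and -0.14 and the mitochondrial transcripts 0.61, 0.70, 0.96 and -0.37. Fibrinogen and the acute phase genes were lowest in animal 3, and the nucleolar and mitochondrial groups were highest there. Animal 4, whose IP library was the smallest, had the smallest shift in the first pair of groups and lay on the other side of 0 in the second. Without animal 4, 41 genes were called lower and 10 higher, and the fibrinogen chains lay 1.10 below the median of the described genes.

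The machinery of the mark itself was sparsely measured. Of 14 writer and eraser genes 3 were described, and of 14 readers 8, with none called. Zc3h13, a scaffold of the writer complex, had a log2 of -0.44 (adjusted p = 0.891), the eraser Alkbh5 -0.54 (adjusted p = 0.964), and the readers Ythdf3 -0.59 (adjusted p = 0.832) and Elavl1 -1.61 (adjusted p = 0.877). Their levels overlapped between IP and input.

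Of the 46 lists, 17 held a gene called lower and 1 a gene called higher. The 22 lists not described gene by gene (other metabolic pathways, transcription factors, chaperones, proteasome, cell cycle, clock, splicing and cell type markers) had no gene called higher and, in 4 of them, a gene called lower. The 18 of them with at least 5 described genes had medians from -0.73 to 1.07 relative to the described genes.

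The same genes were read in the 3 other groups. Of the 44 genes called lower in hepatectomised KO liver, 0 were called lower in hepatectomised flox liver, 3 in sham KO liver and 2 in sham flox liver, and a gene not called there is not shown to differ. Over all described genes, 0 were called lower and 57 higher in hepatectomised flox liver (background 0.0% lower and 1.21% higher). In sham KO liver 3 were lower and 0 higher (background 0.0209% lower and 0.0% higher). In sham flox liver 4 were lower and 14 higher (background 0.0279% lower and 0.23% higher). The background called lower in sham KO and sham flox liver is these same 3 and 4 genes. Of the counts of 0 by edgeR, the one in hepatectomised flox liver stood beside 15 genes lower at an unadjusted p under 0.05, 31 by DESeq2 and 2 by limma voom, and the one in sham KO liver beside 42 higher at an unadjusted p under 0.05, 22 by DESeq2 and 102 by limma voom. The median log2 was 0.40 in hepatectomised flox, -0.06 in sham KO and 0.26 in sham flox liver, for genes chosen by the hepatectomised KO inputs.

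The difference between hepatectomised KO and hepatectomised flox liver was then tested gene by gene. The log2 IP/input of 73 described genes was lower in KO and that of 1 was higher, against a background of 0.705% lower and 0.00698% higher among all genes tested. That background includes the described genes. They were chosen by the hepatectomised KO inputs, which are the KO denominator here, so the choice leans this test toward lower values in KO. With the animal as a block the counts were 48 and 0. Of the 44 genes called lower in IP, 22 passed this test and 22 did not. Fga had a log2 IP/input of -1.52 in hepatectomised KO and 0.46 in hepatectomised flox liver, a difference of -1.98 ± 0.28 (SE of the fit, 4 animals each, adjusted p = 7.31e-06). Fgb differed by -1.62 (adjusted p = 0.000183), and Fgg by -1.34, which did not pass (adjusted p = 0.0505). Mean levels of Fga in IP were 16061 CPM in KO and 52618 CPM in flox, and in input 38848 CPM in KO and 49144 CPM in flox.

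Other secreted protein mRNAs were also lower relative to flox. Over the described genes the median log2 IP/input was -0.59 in hepatectomised KO and 0.40 in hepatectomised flox liver. The differences given here and for fibrinogen include that shared shift. The difference was -4.55 for Serpina1e (adjusted p = 1.04e-07), -2.19 for Serpina3k (adjusted p = 3.78e-07), -2.09 for Serpina3n (adjusted p = 7.03e-05), -2.29 for Hp (adjusted p = 0.000337) and -1.67 for Apoa1 (adjusted p = 1.74e-05). Saa2 (-4.99, adjusted p = 0.00584), Cyp8b1 (-7.45, adjusted p = 0.000853), Elovl3 (-11.43, adjusted p = 0.00081), Cyp2e1 (-2.51, adjusted p = 0.000337) and Egfr (-2.50, adjusted p = 0.00081) also passed. Alb (-0.68, adjusted p = 0.179), Trf (-0.65, adjusted p = 0.147) and Cps1 (-0.44, adjusted p = 0.864) did not. In hepatectomised flox liver Elovl3 averaged 106 CPM in IP and 156 CPM in input, and Cyp8b1 263 CPM in IP and 317 CPM in input.

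The 6 largest differences below flox were of another kind. Sdf4 (-14.52), Rhbdd2 (-14.23), Pi4kb (-14.03), Selenoi (-13.94), Mark4 (-13.88) and Slx4 (-13.88) were at 0 in all 4 hepatectomised flox inputs, so these fitted values have no scale. Sdf4, a calcium-binding protein of the Golgi, had 126, 117, 68.1 and 99.7 CPM in IP, against 65.3, 45.0, 199 and 161 CPM in input, in hepatectomised KO liver, and averaged 136 CPM in IP in hepatectomised flox liver. Of the 73 genes, 28 had all flox inputs at 0, and the other 45 had a median difference of -2.66. Of these 45, 11 were still at 0 in at least 1 flox input, and the lowest difference was -13.74. Of the 45, 23 were not called lower in IP in hepatectomised KO liver. The 1 gene above flox, ENSMUSG00000098178 (no symbol, chromosome 17, 39846958 to 39848788), had 4182, 844, 520.1 and 18166 CPM in IP, against 1064, 1813, 1145 and 1684 CPM in input, with animal 4 far above the others in IP (difference 3.12, adjusted p = 0.0398). The counts depended on the animals, with 26, 36, 19 and 38 genes lower without animals 1, 2, 3 and 4, and on the scaling, with 8 by upper-quartile factors and 28 with none.

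**Figure D4:**
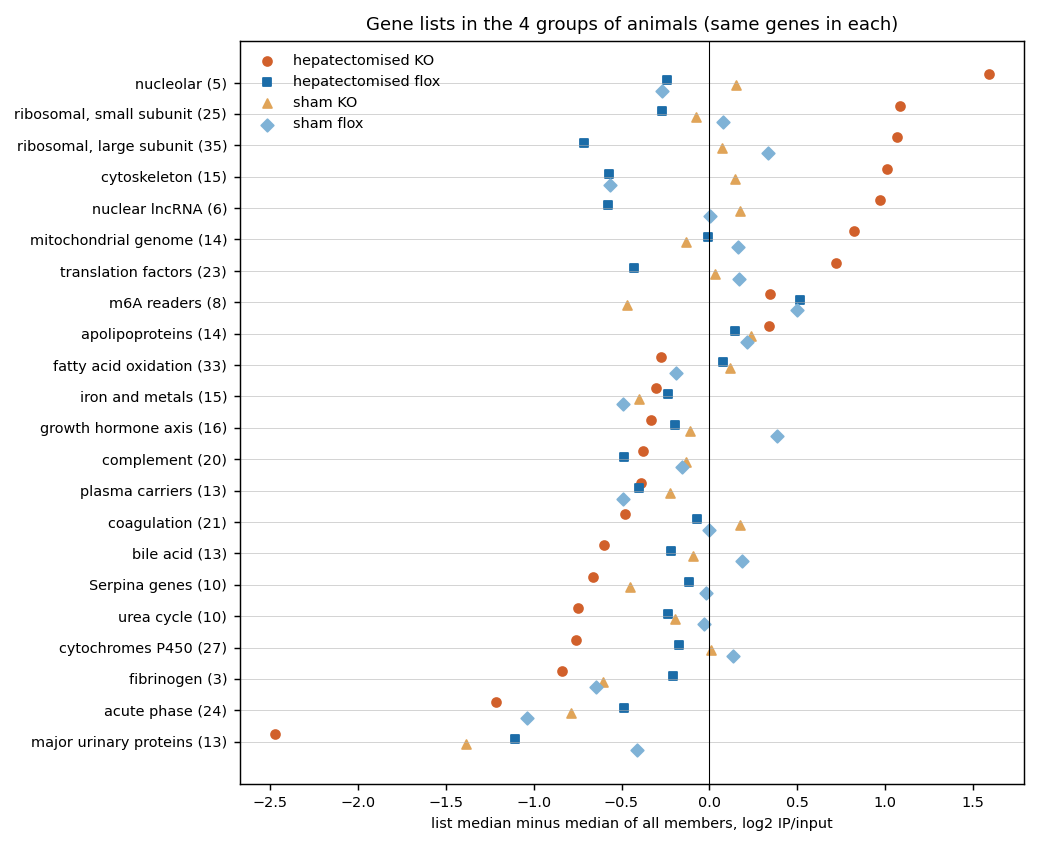
Median log2 IP/input of each of 22 gene lists minus the median of the described genes (horizontal axis) in hepatectomised KO, hepatectomised flox, sham KO and sham flox liver, for the same genes in each group. Hepatectomised KO liver has the widest range, from -2.47 for major urinary proteins to 1.59 for nucleolar genes, and hepatectomised flox liver runs from -1.10 to 0.51.

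Lists spread further in hepatectomised KO liver than in the other groups, as a description with no test. Relative to the median of the described genes, acute phase mRNAs stood at -1.21 in hepatectomised KO, -0.49 in hepatectomised flox, -0.79 in sham KO and -1.04 in sham flox liver. Fibrinogen stood at -0.84 in hepatectomised KO, -0.21 in hepatectomised flox, -0.60 in sham KO and -0.64 in sham flox liver. Ribosomal small subunit mRNAs stood at 1.08 in hepatectomised KO, -0.27 in hepatectomised flox, -0.07 in sham KO and 0.08 in sham flox liver. Ribosomal large subunit mRNAs stood at 1.07 in hepatectomised KO, -0.71 in hepatectomised flox, 0.07 in sham KO and 0.34 in sham flox liver. The acute phase and fibrinogen genes were below the median in all 4 groups, while those of the large ribosomal subunit were above it in 3 of 4 and those of the small subunit in 2 of 4.

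Between hepatectomised and sham KO liver few genes passed the test. The log2 IP/input of 5 described genes was lower after hepatectomy and that of 0 was higher (edgeR, background 0.0349% lower and 0.0% higher). That background is the same 5 genes. At an unadjusted p under 0.05, 101 were lower and 28 higher. The choice of genes by the hepatectomised KO inputs leans this test toward lower values after hepatectomy. DESeq2 gave 22 lower and 3 higher, and the animal as a block 18 lower and 7 higher. The 5 were Elovl3 (-10.52, adjusted p = 0.0115), Cyp8b1 (-7.19, adjusted p = 0.0107), Gm8893 (-3.81, adjusted p = 0.029), Serpina1e (-3.33, adjusted p = 0.000474) and Cyp2e1 (-2.07, adjusted p = 0.029). All 5 were also lower than in hepatectomised flox liver, a comparison that uses the same hepatectomised KO libraries. For fibrinogen the difference was -0.86 for Fga (adjusted p = 0.322), -0.86 for Fgb (adjusted p = 0.322) and -0.37 for Fgg (adjusted p = 0.889), and none passed. The count of 5 was 3 without animal 1, 2 without animal 3 and 8 without animal 4, which also gave 6 higher, and 0 by upper-quartile factors.

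Transcript length and exon layout, which the choice of genes did not use, were set against IP/input. Over 4 measures the rank correlations across the described genes of hepatectomised KO liver were 0.052 to 0.12. Across the 3055 genes Spearman's rho with exonic length was 0.12, and with the longest internal exon block 0.11. The 764 genes with the shortest exonic sequence (median 2012 bases) had a median log2 of -0.70, and the 764 with the longest (median 10849 bases) -0.35. In hepatectomised flox, sham KO and sham flox liver the rho with exonic length was 0.055, 0.030 and 0.0051. The 44 genes called lower had a median exonic length of 2250 bases, against 5115 for all described genes and 2512 for the 200 abundant ones, and the rho across those 200 was -0.074. Across the same 200 genes the rho in hepatectomised KO liver was -0.16 with the longest internal block, -0.19 with the number of exon blocks and 0.047 with the last block, which had a rho of 0.33 in hepatectomised flox liver. These are values across genes, which are not independent replicates.

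At the limit of 50 CPM the levels varied widely between animals. Rap1b had 26.8, 42.1, 26.9 and 0 CPM in IP, against 137, 38.1, 24.4 and 0 CPM in input, and Ccnb1 1.4, 6.41, 0 and 0 CPM in IP, against 92.6, 2.84, 0.491 and 104 CPM in input, just inside. Odr4 had 0, 20.7, 38.4 and 0 CPM in IP, against 5.30, 50.1, 144 and 0 CPM in input, and Sp1 159, 89.4, 53.2 and 199 CPM in IP, against 44.5, 60.9, 13.7 and 80.9 CPM in input, just outside. Input levels of single animals ran from 0 to 144 CPM in these 4 genes. Of the 3056 genes, 337 were at 0 in at least 1 input and 284 in at least 1 IP library, and 2514 had counts in all 8 libraries.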

How the data were processed

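Liver RNA of 16 mice was read as an m6A IP library and an input library from each. The authors deposited estimated counts (expected counts, not normalized) for 55421 Ensembl genes; in each library 1.33% to 8.22% of the values were not whole. Per the submitters' processing notes, fastp and STAR were used; no source used here names the counter, its strand setting, tool versions or the build. Per the labels' protocols, IP libraries were made with a kit that does not mark strand and inputs with a stranded one, so overlapping and antisense genes are uncertain.

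Counts were rounded and fitted with edgeR 4.0.16 in R 4.3.3 (quasi-likelihood test, TMM factors, a coefficient for each of the 8 groups of libraries, genes kept by filterByExpr with a minimum count of 10), and p-values were adjusted by Benjamini-Hochberg over 14328 genes. Counts were simulated for the IP over input test with the spread of these libraries, starting from the same mean of a gene in all groups. Of genes changed by 2 on the log2 scale 8 of 100 were called, of those changed by 4, 70 of 100, and 1 of 14128 unchanged genes. The changed genes were drawn from described genes of at least 200 CPM in input, so recovery at lower levels was not measured. Alternatives used other scaling, DESeq2 1.42.0, limma 3.58.1 (voom), the animal as a block, the 8 hepatectomised KO libraries alone, the described genes alone, no filter, other choices of genes and each animal left out. Symbols came from RefSeq (GRCm38.p6) by position, for 34896 genes, against 1531 once every position was moved by 1000000 bases.

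The genes described and the lists were chosen with earlier results of these data known. Genes were named by rule: Mettl14 and the fibrinogen chains, up to 12 called genes each way with the largest log2 and a regular symbol, up to 4 of each list by p and up to 6 each way for each difference, 2 on either side of 50 CPM and the 4 most abundant. Some genes that the rule names are not reported here. Kansl3 and Sned1, outside it, were chosen after their values were seen. IP and input of a replicate number share an animal, per the labels. The check of that pairing gave correlations of 0.0093, 0.029, 0.15 and 0.32 over 200 abundant genes in animals 1 to 4, and 2 of 4 inputs matched their own IP library best. Labels do not say whether animals shared a litter, operation day or library batch, so p-values measure the spread between these samples, which may be technical in part. Depths limit levels near 0, and counting intervals (95%) cover counting error only.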

Additional observations from a re-analysis of the deposited data

Results flagged for a closer look

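Some IP levels of a single animal lay far from those of the other 3, by a gap that chance gives in about 1 of 20 groups of 4. The highest of the 4 was far from the others for Cyp8b1 at 3.74 CPM and Cyp2c37 at 8.48 CPM (both animal 2), Mup11 at 24.4 CPM (animal 4), Mup7 at 33.8 CPM (animal 3), Steap4 at 460.5 CPM, B3galt1 at 316 CPM, Egfr at 1664 CPM, Alkbh5 at 191 CPM and Elavl1 at 61.8 CPM (all animal 4), and Neat1 at 209.7 CPM (animal 2). The lowest of the 4 was far from the others for Glul at 228 CPM. No input level was flagged by the same measure.

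Log2 IP/input differed between hepatectomised KO and hepatectomised flox liver by the fit's own test of the difference for these genes, with values of KO minus flox. Among secreted proteins it was -1.98 for Fga, -1.62 for Fgb, -4.99 for Saa2, -3.58 for Saa1, -2.29 for Hp, -4.55 for Serpina1e, -1.85 for Serpina1d, -2.19 for Serpina3k and -2.09 for Serpina3n. It was -4.70 for Gm8893, -5.25 for Mup11, -2.95 for Mup3, -1.67 for Apoa1, -1.28 for Apob and -1.72 for Hrg. Among enzymes, transporters and receptors it was -11.43 for Elovl3, -7.45 for Cyp8b1, -2.51 for Cyp2e1, -2.66 for Slco1b2, -2.47 for Slc27a2, -2.63 for Acsl1, -2.50 for Egfr, -2.16 for Steap4 and -3.20 for B3galt1. For genes at 0 in all flox inputs the fitted values have no scale: -14.52 for Sdf4, -14.23 for Rhbdd2, -14.03 for Pi4kb, -13.94 for Selenoi, -13.88 for Mark4 and -13.88 for Slx4. ENSMUSG00000098178 was the one gene with a positive value, 3.12. The choice of genes by the KO inputs leans these differences below 0. They also include the lower median log2 IP/input of the described genes in hepatectomised KO than in hepatectomised flox liver.

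Against sham KO liver the differences were -10.52 for Elovl3, -7.19 for Cyp8b1, -3.81 for Gm8893, -3.33 for Serpina1e and -2.07 for Cyp2e1.

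Outside the described genes, 2 genes were called higher in IP. Kansl3, of a chromatin acetyltransferase complex, averaged 42.5 CPM in IP and was at 0 in every input (fitted log2 12.07, edgeR adjusted p = 0.0248). It was 674-fold higher against a floor of 3 counts over the 4 inputs. Sned1, an extracellular matrix protein, averaged 66.9 CPM in IP, against 0 in every input (fitted log2 12.73, edgeR adjusted p = 0.0476). It was 1060-fold higher by the same floor. The floor covers counting error only, and 337 described genes were at 0 in at least 1 input. These folds are therefore no lower bounds.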

How the results depend on the processing

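The count of described genes called higher in IP was 1, and became 5 with no TMM factors, 0 with upper-quartile factors, 9 with DESeq2's size factors in edgeR, 22 with DESeq2, 9 with limma voom, 0 with the animal as a block, 5 with the 8 libraries and the block, 21 with the described genes alone, 2 with no filter and 4 with no minimum size. The count called lower was 44, and became 22 with upper-quartile factors, 25 with DESeq2's size factors, 80 with DESeq2, 69 with limma voom and 18 with the 8 libraries and no block. Leaving out 1 animal gave 0 to 10 higher and 20 to 41 lower. The cause of these changes was not tested. The median log2 of -0.59 became -0.365 with no TMM factors, -0.453 with upper-quartile factors, -0.250 with DESeq2's size factors and with DESeq2, -0.154 with limma voom, -0.294 with the block, -0.280 with the 8 libraries and the block, -0.138 with the described genes alone, -0.270 and -0.224 when genes were chosen by the other inputs or by the mean of IP and input, and -0.585 to -0.342 with 1 animal left out.

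Against hepatectomised flox, 1 gene was higher, and 2 were with no TMM factors, 3 with DESeq2's size factors, 8 with DESeq2, 0 with limma voom, 0 with the block, 2 with no filter and 0 to 1 with 1 animal left out. The 73 lower became 28 with no TMM factors, 8 with upper-quartile factors, 23 with DESeq2's size factors, 157 with DESeq2, 134 with limma voom, 48 with the block and 19 to 38 with 1 animal left out. Against sham KO, 0 were higher, and 3 were with DESeq2, 7 with the block, 5 with no filter and 0 to 6 with 1 animal left out. The 5 lower became 0 with upper-quartile factors, 3 with DESeq2's size factors, 22 with DESeq2, 1 with limma voom, 18 with the block, 11 with no filter and 2 to 8 with 1 animal left out.

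Of 78 named genes, 33 were called. Under limma voom 49 kept their direction and side of the threshold, and with the animal as a block 74 did; Ncl, Slc27a2 and Retreg1 lost their calls with the block. Reversals were few. With limma voom mt-Nd1 was at -0.67, mt-Nd2 at -0.57, mt-Nd4 at -0.84, ENSMUSG00000098178 at -0.32 and Pi4kb at 1.04. Sdf4 was at 0.0086 with the described genes alone and -0.83 to 0.16 with 1 animal left out, and Rap1b at -1.69 to 0.18. mt-Nd5, at -0.0069, was at 0.23 with no TMM factors, 0.15 with upper-quartile factors, 0.39 with DESeq2's size factors and with DESeq2, 0.018 with the 8 libraries and no block, 0.48 with the described genes alone and -0.17 to 0.54 with 1 animal left out. The smallest IP library held 7133766 counts, and the part of depth in these results was not tested.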
